A study of Mus musculus with 9 samples.

Results

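Ptger1, Ptger2, Ptger4, Adcy7, Pde3b, Pde4b, Pde4d, Pde7a, Crem and Prkar1a encode prostaglandin E2 receptors and the proteins that make, break down and read the second messenger cyclic AMP (cAMP) in T cells. They were found by gene symbol among the 16500 genes of the expression table, and all 10 had a row. The 10 were chosen by role with the expression values and fold changes of these libraries in view, so what follows for them is a description, calls included. Paired-end RNA sequencing gave 9 libraries of primary CD4+ T cells (C57BL/6 mice) in 3 groups. The cells had received by retrovirus the NFAT2_CARIT vector, the NFAT2_CA vector or a control vector, with 3 libraries per group. NFAT2, the product of Nfatc1, is a transcription factor that calcineurin activates in stimulated T cells. CA marks a form active without calcineurin, and RIT marks substitutions that weaken its joint DNA binding with AP-1, the Fos-Jun dimer. Every group, Control included, went through culture and transduction. The labels give no time after transduction, no age or sex of the mice, no addition of a prostaglandin and no sorting of transduced cells, and they leave unsaid whether the libraries of a group are separate mice or cultures. The p-values therefore speak of library-to-library spread, which may be technical. Messenger RNA was measured, and cAMP itself was not.

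Prostaglandin E2 is a lipid made by many cells of inflamed tissue and tumours, and it is known for restraining T cells. Its receptors EP2 and EP4 (genes Ptger2 and Ptger4) couple to the stimulatory G protein Gs and so to adenylyl cyclases, which make cAMP, whereas EP1 (Ptger1) acts mainly through calcium. cAMP releases the catalytic subunits of protein kinase A from regulatory subunits such as the one encoded by Prkar1a, the kinase dampens signalling near the T cell receptor and phosphorylates factors of the CREB and CREM family, and phosphodiesterases end the signal by hydrolysing cAMP.

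Both NFAT2 vectors went with low expression of the cyclase gene Adcy7 and the phosphodiesterase gene Pde3b and high expression of Crem. Of the receptor genes, Ptger2 was lower and Ptger4 higher with NFAT2_CARIT than with NFAT2_CA in the fit described below. Ptger1 was not called between the vectors. Crem averaged 208 ± 5.83 CPM with NFAT2_CARIT, 183 ± 5.85 CPM with NFAT2_CA and 47.0 ± 4.18 CPM in Control (mean ± SD, n = 3 libraries per group, as in all means below). CPM scale a gene's reads to 1 fixed total that all libraries share. Pde3b stood at 159 ± 11.4 CPM with NFAT2_CARIT, 154 ± 8.05 CPM with NFAT2_CA and 548 ± 51.2 CPM in Control. Ptger2 stood at 22.7 ± 0.523 CPM with NFAT2_CARIT, 60.5 ± 0.273 CPM with NFAT2_CA and 25.7 ± 2.13 CPM in Control.

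In the fit over all 13096 genes that reached 1 CPM in at least 3 libraries, a gene was called at a limma adjusted p under 0.05 (Benjamini-Hochberg). Of the 10 genes, 3 were called higher and 7 lower with NFAT2_CARIT than in Control, where 29.2% of all tested genes were called higher and 41.1% lower. With NFAT2_CA, 4 were called higher and 5 lower than in Control and 1 (Ptger1) was not called, beside 29.0% of all tested genes higher and 36.5% lower. Both comparisons share the 3 Control libraries. Between the vectors, 6 of the 10 were called higher and 2 lower with NFAT2_CARIT than with NFAT2_CA and 2 were not called, beside 11.9% of all tested genes higher and 16.7% lower. The split of all calls between the vectors depended on the scaling: 1552 genes were higher and 2191 lower (41.5% of calls higher) on CPM as deposited, against 2164 higher and 1696 lower (56.1% higher) with TMM factors and 50.8% higher after quantile normalization. The median log2 fold change of the 10 genes was -0.18 with NFAT2_CARIT against Control (-0.09 over all tested genes), -0.35 with NFAT2_CA against Control (-0.06) and 0.17 between the vectors (-0.03). Log2 fold changes are on CPM + 1, which understates the change of genes near 1 CPM.

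The DNA upstream of 4 of these genes is shown because the vectors differ in the partner that NFAT binds with and because Crem and its relatives bind a cAMP response element. RefSeq promoter entries (GRCm38.p6) were matched for 6 of the 10 genes, with 16 windows of the 250 bases before a transcript start, some of which overlap. Crem itself was left out of this search. Capitals mark matches, on either strand, to the NFAT core GGAAA, the AP-1 element TGANTCA, the cAMP response element TGACGTCA and its short form TGACG, which lies within the full element. The Ptger2 window is chr14:44987861-44988110 on the plus strand, and the Ptger4 window is chr15:5244188-5244437 on the minus strand. The Adcy7 window, chr8:88288816-88289065 on the plus strand, was the only 1 of the 16 with an AP-1 element. The Prkar1a window, chr11:109650699-109650948 on the plus strand, was the only 1 of the 16 with a full cAMP response element. All 4 are printed from 5′ to 3′.
Ptger2: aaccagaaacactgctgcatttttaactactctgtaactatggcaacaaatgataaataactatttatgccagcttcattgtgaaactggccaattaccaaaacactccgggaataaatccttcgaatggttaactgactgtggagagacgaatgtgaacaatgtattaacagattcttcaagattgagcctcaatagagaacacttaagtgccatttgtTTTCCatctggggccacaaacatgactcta
Ptger4: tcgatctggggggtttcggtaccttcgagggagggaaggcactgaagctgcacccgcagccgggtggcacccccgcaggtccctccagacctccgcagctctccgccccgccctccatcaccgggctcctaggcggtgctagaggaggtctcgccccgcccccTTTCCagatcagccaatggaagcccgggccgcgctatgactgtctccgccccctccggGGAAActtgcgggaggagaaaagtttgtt
Adcy7: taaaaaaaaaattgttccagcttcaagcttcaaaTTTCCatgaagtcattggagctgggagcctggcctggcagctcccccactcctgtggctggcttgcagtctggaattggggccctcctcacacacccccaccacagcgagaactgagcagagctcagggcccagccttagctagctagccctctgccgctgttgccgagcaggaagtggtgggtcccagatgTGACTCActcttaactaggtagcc
Prkar1a: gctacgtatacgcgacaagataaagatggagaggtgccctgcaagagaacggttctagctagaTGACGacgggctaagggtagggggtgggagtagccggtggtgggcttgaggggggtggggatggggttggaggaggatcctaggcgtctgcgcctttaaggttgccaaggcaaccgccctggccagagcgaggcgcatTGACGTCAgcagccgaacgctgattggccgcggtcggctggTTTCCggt
In the Ptger2 window the NFAT core began at position -30, counting back from the transcript start, and no AP-1 element matched. The Ptger4 window held NFAT cores at -87 and -29. In the Adcy7 window the NFAT core at -216 and the AP-1 element at -24 lay 187 bases apart. The Prkar1a window held the full cAMP response element at -49 and an NFAT core at -8. The NFAT core occurred in 12 of the 16 windows, beside 55.6% of all 32851 windows of the same length. Most of the 16 windows belonged to Prkar1a and Pde4b, so they do not stand for 16 separate genes. The AP-1 element occurred in 6.75% of all windows, the full cAMP response element in 1.55% and the short form in 17.8% (5 of the 16 windows). These are letter matches only, and no binding was measured.

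Nfatc1, the gene of the vectors' insert, was at 240.5, 245 and 253 CPM in the NFAT2_CARIT libraries, 342, 336 and 395 CPM in the NFAT2_CA libraries and 224, 228 and 188 CPM in Control. It was called higher with NFAT2_CA than in Control (0.74 ± 0.08, limma adjusted p = 3.6e-07) and higher with NFAT2_CARIT than in Control (0.21 ± 0.08, adjusted p = 0.023), the second call being lost without NFAT2_CARIT replicate 2 (adjusted p = 0.055), NFAT2_CARIT replicate 3 (adjusted p = 0.071) or Control replicate 3 (adjusted p = 0.1). Whether reads of the insert count towards Nfatc1 is not given in the sources used here. Estimated depth was 19947800 to 38189000 reads per library. The 9 T cell markers (Cd3e, Cd3d, Cd3g, Cd4, Trac, Trbc1, Trbc2, Cd28 and Lck) summed to 6852 to 6957 CPM with NFAT2_CARIT, 7228 to 7728 CPM with NFAT2_CA and 6053 to 6407 CPM in Control, which fits the labelled cell type. The CD8 markers Cd8a and Cd8b1 summed to 22.6 to 24.0, 28.4 to 30.8 and 12.5 to 13.7 CPM in the same groups. Of 7 myeloid and dendritic cell markers, the 3 analysed here (Itgam, Cd14 and Itgax) summed to 2.3 to 3.38 CPM with NFAT2_CARIT, 1.52 to 1.93 CPM with NFAT2_CA and 6.83 to 9.39 CPM in Control. Itgam made up most of the Control sum, at 1.34 ± 0.397 CPM with NFAT2_CARIT, 0.701 ± 0.085 CPM with NFAT2_CA and 7.98 ± 1.24 CPM in Control. The other markers did not follow it: Cd14 was at 0.351 to 0.707, 0.781 to 1.05 and at most 0.0851 CPM in the same groups and Itgax at 0.681 to 1.35, at most 0.112 and at most 0.0946 CPM, with Cd14 listed at 0 in Control replicates 2 and 3 and Itgax in NFAT2_CA replicate 3 and Control replicate 3. Of 5 B cell markers, Cd79a and Cd79b summed to 0.733 to 1.6, 0.629 to 1.23 and 2.5 to 3.47 CPM. The NK cell marker Eomes, 1 of 4 on its list, was at 1.32 to 1.65, 2.3 to 2.78 and 3.48 to 3.67 CPM, and the platelet marker Itga2b, 1 of 4 on its list, at 2.44 to 2.86, 1.68 to 2.74 and 2.12 to 2.74 CPM. The other markers of these lists were not analysed here. The part of such cells in the results below was not tested. In such bulk libraries, fewer cells that express a gene and less RNA of that gene per cell cannot be told apart.

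**Figure D1:**
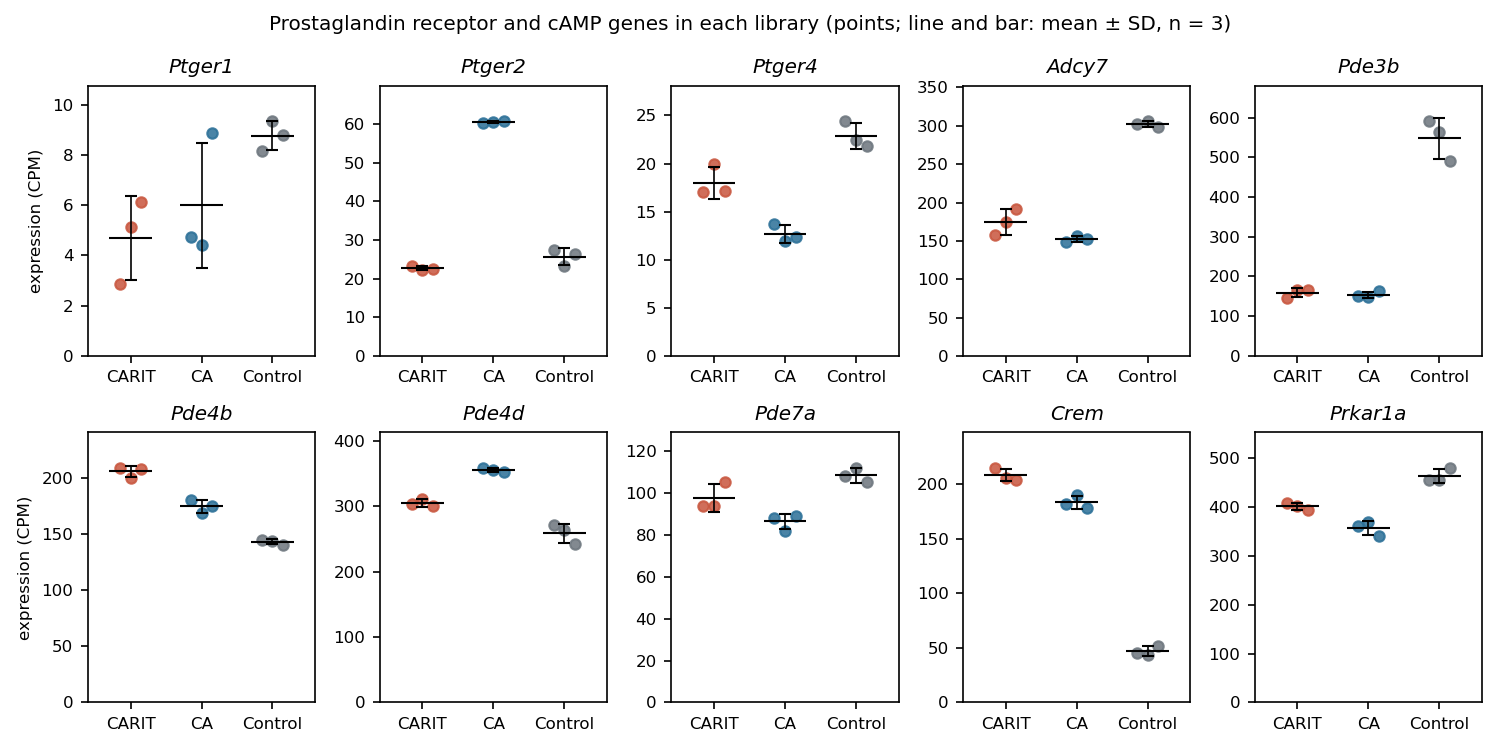
Expression in CPM (vertical axis, from 0) of each of the 10 genes in the 3 NFAT2_CARIT, 3 NFAT2_CA and 3 Control libraries, with 1 point per library and a line and bar for the mean ± SD. The NFAT2_CA libraries stand apart for Ptger2 (60.2 to 60.7 CPM), and the Control libraries stand apart for Adcy7, Pde3b and Crem.

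The receptor gene Ptger2 was high with NFAT2_CA alone among the 3 groups. It measured 23.3, 22.3 and 22.6 CPM in the NFAT2_CARIT libraries, 60.2, 60.5 and 60.7 CPM in the NFAT2_CA libraries and 27.3, 23.2 and 26.4 CPM in the Control libraries. The NFAT2_CA libraries lay above all 6 others, and the NFAT2_CARIT and Control libraries overlapped. The NFAT2_CA mean was 2.36 times the Control mean, a log2 fold change of 1.21 ± 0.07 (SE; limma adjusted p = 2.4e-10). With NFAT2_CARIT the level was 0.376 times that with NFAT2_CA (-1.37 ± 0.07, limma adjusted p = 1.1e-09). This was the largest difference between the vectors among the 10 genes. Against Control, NFAT2_CARIT gave -0.16 ± 0.07 (limma adjusted p = 0.046, 95% confidence interval -0.31 to -0.02), a call that ended under most alternatives. It was lost without any single library other than Control replicate 2 (adjusted p = 0.052 to 0.18), and with TMM factors (-0.13, adjusted p = 0.13) or quantile normalization (-0.07, adjusted p = 0.36). Ptger2 (chromosome 14, 44988195 to 45003820, plus strand, GRCm38) is overlapped on the other strand by the antisense gene Gm17173, which averaged 0.184 ± 0.0726 CPM with NFAT2_CARIT, 0.977 ± 0.728 CPM with NFAT2_CA and 1.89 ± 0.418 CPM in Control. Gm49364 also overlaps Ptger2 on the other strand. It averaged 0.767 ± 0.124 CPM with NFAT2_CARIT, 2.03 ± 0.91 CPM with NFAT2_CA and 3.36 ± 1.58 CPM in Control. No source used here says how strand was treated in counting, so reads of Ptger2 and these overlapping genes cannot be told apart.

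Ptger4, the gene of the other Gs-coupled receptor for prostaglandin E2, ran the other way with NFAT2_CA. It measured 17.0, 19.9 and 17.1 CPM with NFAT2_CARIT, 13.7, 11.9 and 12.4 CPM with NFAT2_CA and 24.4, 22.4 and 21.8 CPM in Control, and no pair of groups overlapped. It fell by 0.81 ± 0.09 on the log2 scale with NFAT2_CA (limma adjusted p = 6.9e-07) and by 0.33 ± 0.09 with NFAT2_CARIT (limma adjusted p = 0.0036) against Control. Between the vectors it was higher with NFAT2_CARIT (0.48 ± 0.09, limma adjusted p = 0.00082). Ptger4 (chromosome 15, 5206661 to 5244187, minus strand) overlaps the coding gene Ttc33 on the other strand, which held 28.1 ± 0.75 CPM with NFAT2_CARIT, 30.1 ± 2.44 CPM with NFAT2_CA and 30.1 ± 0.437 CPM in Control. Per kilobase of exon, Ptger2 stood at 1.75, 1.43 and 1.70 times Ptger4 with NFAT2_CARIT, 5.63, 6.53 and 6.29 times with NFAT2_CA and 1.44, 1.33 and 1.55 times in Control. The balance of the 2 receptor transcripts in the NFAT2_CA libraries thus lay apart from that in the other 6.

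Ptger1, the calcium-coupled receptor gene, was the lowest of the 10 and, relative to its mean, the most variable with either NFAT2 vector, though not in Control. It measured 2.86, 5.13 and 6.11 CPM with NFAT2_CARIT, 4.74, 4.40 and 8.87 CPM with NFAT2_CA and 8.17, 9.34 and 8.80 CPM in Control. NFAT2_CA replicate 3 lay within the Control range and the other NFAT2_CA libraries below it. Against Control the change was -0.82 ± 0.26 with NFAT2_CARIT (limma adjusted p = 0.015), a call lost without Control replicate 2 (adjusted p = 0.051) or Control replicate 3 (adjusted p = 0.053). With NFAT2_CA it was -0.54 ± 0.26 and missed the threshold (limma adjusted p = 0.091), but passed it without NFAT2_CA replicate 3 (-0.81, adjusted p = 0.0019) or NFAT2_CARIT replicate 1 (adjusted p = 0.029). The NFAT2_CA change also passed in a limma fit on only the 6 libraries compared (adjusted p = 0.038). With the replicate number as a block it passed too (limma adjusted p = 0.018). The vectors differed by -0.29 (95% confidence interval -0.86 to 0.28, limma adjusted p = 0.45). Ptger1 spans chromosome 8, 83666678 to 83672753, on the plus strand.

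Adcy7 encodes an adenylyl cyclase that is prominent in mouse lymphocytes. It measured 158, 174 and 192 CPM with NFAT2_CARIT, 149, 156 and 152 CPM with NFAT2_CA and 302, 306 and 299 CPM in Control. All 6 NFAT2 libraries lay more than 100 CPM below the Control libraries. The NFAT2_CARIT mean was 0.578 times and the NFAT2_CA mean 0.504 times the Control mean, log2 fold changes of -0.79 ± 0.06 (limma adjusted p = 1.4e-08) and -0.98 ± 0.06 (limma adjusted p = 1.2e-09). The gene spans chromosome 8, 88272403 to 88329962, on the plus strand.

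The 4 phosphodiesterase genes did not move as a block: Pde3b and Pde7a were lower and Pde4b and Pde4d higher with both vectors than in Control. Pde3b encodes a phosphodiesterase that cyclic GMP inhibits. It measured 146, 165 and 167 CPM with NFAT2_CARIT, 149.7, 148 and 163 CPM with NFAT2_CA and 591, 563 and 491 CPM in Control. The NFAT2 libraries of both kinds overlapped and all lay far below Control. Its mean was 0.291 times the Control mean with NFAT2_CARIT (-1.77 ± 0.07, limma adjusted p = 3.1e-12) and 0.28 times with NFAT2_CA (-1.83 ± 0.07, limma adjusted p = 2.5e-12). The difference between the vectors was 0.05 (95% confidence interval -0.11 to 0.21, limma adjusted p = 0.66), the smallest among the 10 genes.

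Pde4b and Pde4d encode cAMP-specific phosphodiesterases of the rolipram-sensitive family. Pde4b measured 209, 200.1 and 208 CPM with NFAT2_CARIT, 180.3, 169 and 175 CPM with NFAT2_CA and 145, 144 and 140.3 CPM in Control. Its 3 groups did not overlap, with NFAT2_CARIT highest and Control lowest. The rise against Control was 0.52 ± 0.05 with NFAT2_CARIT (limma adjusted p = 2.2e-07) and 0.28 ± 0.05 with NFAT2_CA (limma adjusted p = 0.00019), and the vectors differed by 0.24 ± 0.05 (limma adjusted p = 0.0032). Pde4d measured 303, 311 and 299.7 CPM with NFAT2_CARIT, 359, 356 and 353 CPM with NFAT2_CA and 271, 263 and 242 CPM in Control. Its groups did not overlap either, but here NFAT2_CA was highest. Pde4d rose by 0.24 ± 0.06 with NFAT2_CARIT (limma adjusted p = 0.0012) and by 0.46 ± 0.06 with NFAT2_CA (limma adjusted p = 1.8e-06), and the vectors differed by -0.23 ± 0.06 (limma adjusted p = 0.0061). The 2 paralogs therefore differed between the vectors in opposite directions. Pde4b lies on chromosome 4, 102087543 to 102607259, and Pde4d on chromosome 13, 108449948 to 109953461, both on the plus strand. The processed pseudogene Rps3a3 lies within Pde4d on the same strand and held 68.4 ± 3.56 CPM with NFAT2_CARIT, 76.8 ± 2.31 CPM with NFAT2_CA and 55.6 ± 10.9 CPM in Control.

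Pde7a encodes a cAMP-specific phosphodiesterase that rolipram does not inhibit. It measured 93.9, 93.6 and 105 CPM with NFAT2_CARIT, 88.0, 82.0 and 89.0 CPM with NFAT2_CA and 108, 112 and 105 CPM in Control. The NFAT2_CA libraries were the lowest 3, and NFAT2_CARIT replicate 3 stood beside Control replicate 3. Its fall with NFAT2_CA was -0.32 ± 0.06 (limma adjusted p = 0.00026). With NFAT2_CARIT the change was -0.15 ± 0.06 (limma adjusted p = 0.041), which missed the threshold with TMM factors (-0.11, adjusted p = 0.11). It also missed the threshold without NFAT2_CARIT replicate 1 (adjusted p = 0.13) or 2 (adjusted p = 0.16), without NFAT2_CA replicate 1 (adjusted p = 0.053) and without Control replicate 1 (adjusted p = 0.072) or 2 (adjusted p = 0.13).

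Summed over the 13 cAMP phosphodiesterase genes with a row, expression per kilobase of exon was 93.7, 94.8 and 99.3 in the NFAT2_CARIT libraries, 89.4, 86.5 and 90.3 in the NFAT2_CA libraries and 154, 151 and 138 in the Control libraries. The NFAT2 libraries lay below all 3 Control libraries. Pde3b made up 18.2 ± 1.0% of the sum with NFAT2_CARIT, 19.0 ± 0.729% with NFAT2_CA and 40.7 ± 1.47% in Control. Pde4b and Pde4d together made up 46.8 ± 1.61%, 52.1 ± 1.03% and 23.8 ± 0.379% in the same order of groups. The largest share was therefore that of Pde3b in Control and that of Pde4d in both kinds of NFAT2 libraries, where Pde4d held 26.5 ± 1.17% with NFAT2_CARIT, 33.5 ± 0.862% with NFAT2_CA and 14.6 ± 0.0688% in Control. These are shares of transcripts, and enzyme activity was not measured.

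**Figure D2:**
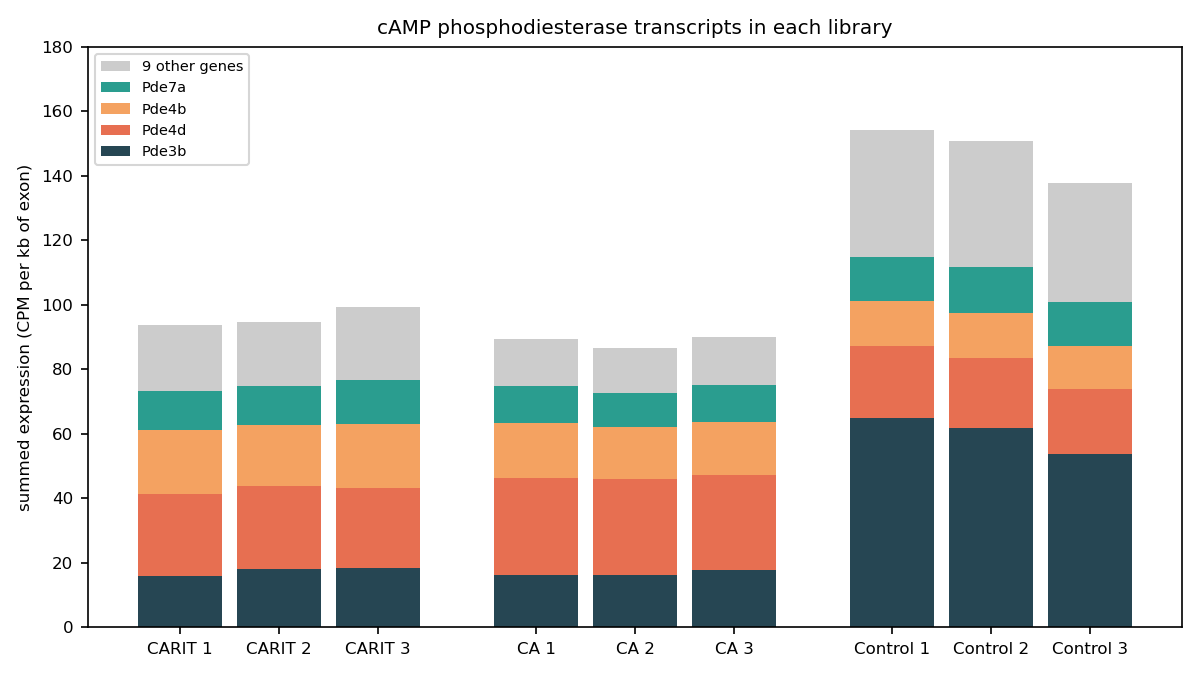
Expression per kilobase of exon (vertical axis, CPM per kb) of the cAMP phosphodiesterase genes, stacked for each of the 3 NFAT2_CARIT, 3 NFAT2_CA and 3 Control libraries, with Pde3b at the bottom and the 9 genes outside the group of 10 in grey on top. The bars reach 93.7 to 99.3 with NFAT2_CARIT, 86.5 to 90.3 with NFAT2_CA and 138 to 154 in Control, and the Pde3b segment is the largest in Control.

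Prkar1a encodes the regulatory subunit of type I protein kinase A, the form that binds cAMP near the T cell receptor. It measured 409, 403 and 395 CPM with NFAT2_CARIT, 362, 369.8 and 340.5 CPM with NFAT2_CA and 455, 455 and 481 CPM in Control. Its groups did not overlap, but the steps between them were small. The mean with NFAT2_CARIT was 0.868 times that of Control (-0.20 ± 0.05, limma adjusted p = 0.0032) and that with NFAT2_CA 0.771 times (-0.37 ± 0.05, limma adjusted p = 1.5e-05). Prkar1a spans chromosome 11, 109649405 to 109669656, on the plus strand, and the window with the cAMP response element printed above lies within it, before the start of a transcript downstream of the first.

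Crem encodes cAMP-responsive factors of the CREB family, activators as well as, from an internal promoter, the short repressor ICER, and the table holds 1 value for all of them. It measured 215, 206 and 204 CPM with NFAT2_CARIT, 182, 189.8 and 178 CPM with NFAT2_CA and 45.6, 43.8 and 51.8 CPM in Control. Every NFAT2 library, from 178 CPM up, was above every Control library, which reached 51.8 CPM. The mean was 4.43 times the Control mean with NFAT2_CARIT (2.13 ± 0.06, limma adjusted p = 6e-14) and 3.9 times with NFAT2_CA (1.94 ± 0.06, limma adjusted p = 2.1e-13). These were the largest fold changes among the 10 genes in both comparisons with Control. The locus is overlapped on the other strand by Gm6225, which was at 0.826 to 2.2 CPM as group means.

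**Figure D3:**
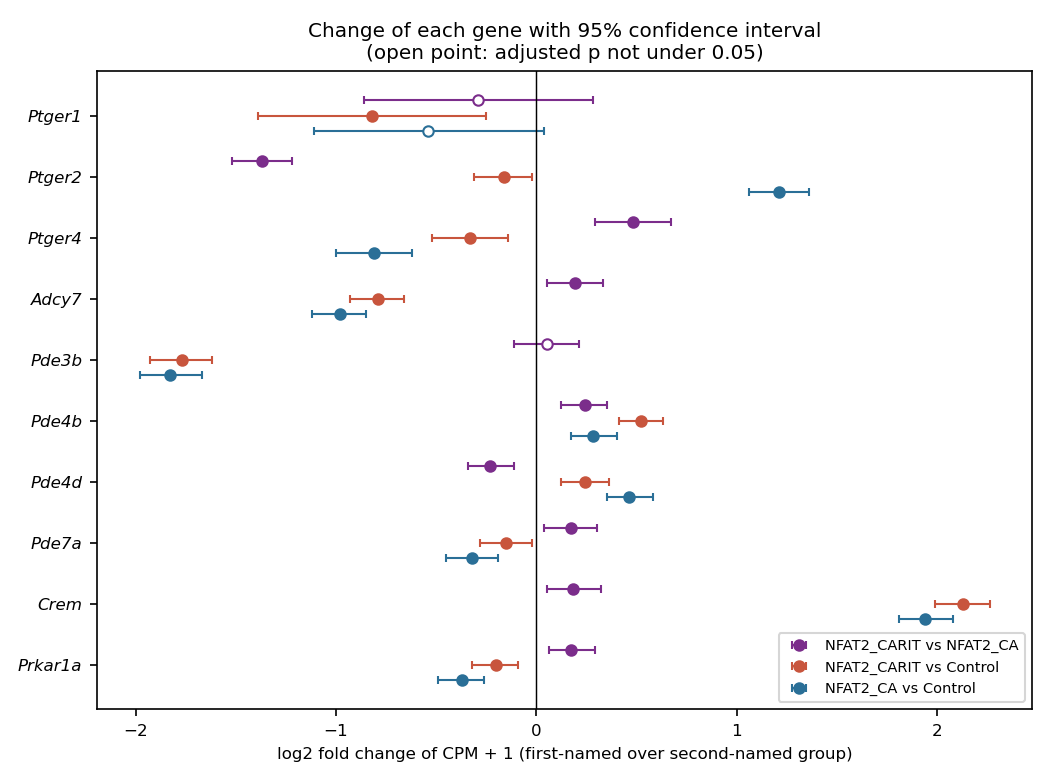
Log2 fold change of CPM + 1 (horizontal axis) for each of the 10 genes, with its 95% confidence interval, for NFAT2_CARIT over NFAT2_CA, NFAT2_CARIT over Control and NFAT2_CA over Control. Filled points passed an adjusted p of 0.05; Ptger2 is the gene whose NFAT2_CA point (1.21) and NFAT2_CARIT point (-0.16) lie on opposite sides of 0.

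Between the vectors, the 6 genes called higher with NFAT2_CARIT were Ptger4, Adcy7, Pde4b, Pde7a, Crem and Prkar1a, and the 2 called lower were Ptger2 and Pde4d. Ptger2, Ptger4, Pde4b and Pde4d were called under every alternative tried, and the other 4 were not. Those 4 had small differences: 0.19 ± 0.06 for Adcy7 (limma adjusted p = 0.036), 0.17 ± 0.06 for Pde7a (limma adjusted p = 0.049), 0.18 ± 0.06 for Crem (limma adjusted p = 0.042) and 0.17 ± 0.05 for Prkar1a (limma adjusted p = 0.027). For Adcy7 the call was lost without NFAT2_CARIT replicate 2 (adjusted p = 0.1) or 3 (adjusted p = 0.18) or without any NFAT2_CA library (adjusted p = 0.063 to 0.11). For Pde7a it was lost without any NFAT2_CARIT or NFAT2_CA library (adjusted p = 0.051 to 0.21), without Control replicate 1 (adjusted p = 0.061) and without Control replicate 2 (adjusted p = 0.059). For Crem it was lost without any NFAT2_CARIT or NFAT2_CA library (adjusted p = 0.058 to 0.13). For Prkar1a it was lost without NFAT2_CARIT replicate 1 (adjusted p = 0.087) or 2 (adjusted p = 0.089) or NFAT2_CA replicate 1 (adjusted p = 0.06) or 3 (adjusted p = 0.1). After quantile normalization 4 of the 10 genes were called between the vectors.

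The authors' deposited table, made with DESeq2, called fewer of the 10 genes at a false discovery rate (FDR) under 0.05. Against Control it called 3 higher and 3 lower with NFAT2_CARIT, where it called 25.6% of all 16477 genes with a value. With NFAT2_CA the authors' deposited table called 4 higher and 4 lower, where it called 21.9% of all genes. Between the vectors the authors' deposited table called Ptger2 alone (log2 ratio -1.41, FDR 3.3e-08), where it called 2.84% of all genes. Ptger4 was called in the authors' deposited table with NFAT2_CA (-0.85, FDR 0.03) and not with NFAT2_CARIT (-0.34, FDR 0.51). Pde7a was called with neither vector in the authors' deposited table (-0.15 and FDR 0.54 with NFAT2_CARIT, -0.33 and FDR 0.091 with NFAT2_CA).

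Ordered by expression per kilobase of exon within each group, Prkar1a led everywhere with 93.1 CPM per kb with NFAT2_CARIT, 82.7 with NFAT2_CA and 107 in Control. Crem came next in both kinds of NFAT2 libraries, at 35.4 CPM per kb with NFAT2_CARIT and 31.1 with NFAT2_CA, while in Control it was at 7.99 and came after Pde3b, Adcy7, Pde4d, Pde7a and Pde4b. With NFAT2_CARIT the order below Crem was Adcy7 (26.0), Pde4d (25.4), Pde4b (19.5), Pde3b (17.5), Pde7a (12.6), Ptger2 (4.38), Ptger4 (2.71) and Ptger1 (0.861), and the libraries of Adcy7 and Pde4d overlapped. With NFAT2_CA it was Pde4d (29.7), Adcy7 (22.6), Pde3b (16.9), Pde4b (16.5), Ptger2 (11.6), Pde7a (11.1), Ptger4 (1.9) and Ptger1 (1.1), and those of Pde3b and Pde4b overlapped. In Control it was Pde3b (60.2), Adcy7 (44.9), Pde4d (21.5), Pde7a (14.0), Pde4b (13.6), Crem, Ptger2 (4.94), Ptger4 (3.44) and Ptger1 (1.61), and those of Pde7a and Pde4b overlapped. Ptger2 passed Pde7a in the NFAT2_CA libraries and in no other group, and the receptor genes were otherwise the lowest 3 in each group.

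The genes most like the 3 members with the widest range of group means were found over the 9 libraries among the 13096 genes, by the Euclidean distance between log2(CPM + 1) values centred on each gene's mean. Nearest to Crem, whose group means spanned 2.13 on the log2 scale, were Nt5e (distance 0.13), Tceal9 (0.14) and Ccnb1-ps (0.25). Nt5e, which encodes the surface nucleotidase CD73, measured 72.2, 72.5 and 68.6 CPM with NFAT2_CARIT, 63.4, 64.7 and 65.5 CPM with NFAT2_CA and 15.1, 15.2 and 16.8 CPM in Control. Nearest to Pde3b (span 1.83) were Sorl1 (0.09), Antxr2 (0.28) and Fam78a (0.29). Sorl1, the gene of a sorting receptor, like Pde3b was lowest among Control libraries in replicate 3, with 88.7, 101 and 99.8 CPM with NFAT2_CARIT, 86.6, 88.3 and 95.9 CPM with NFAT2_CA and 340.4, 339.7 and 287 CPM in Control. Nearest to Ptger2 (span 1.37) were Gstt3 (0.24), Mpzl3 (0.37) and 1700025G04Rik (0.37), with Gstt3, a glutathione transferase gene, at 2.72 ± 0.0758 CPM with NFAT2_CARIT, 9.64 ± 0.346 CPM with NFAT2_CA and 3.59 ± 0.336 CPM in Control. Likeness over 9 libraries that share 3 group means is a description.

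Around the 10 genes, 115 other genes of the pathway were listed by role, of which 87 had a row and 81 were tested. Of these, 26 (32.1%) were called higher and 35 (43.2%) lower with NFAT2_CARIT than in Control, beside 29.2% higher and 41.1% lower over all tested genes. With NFAT2_CA, 22 (27.2%) were called higher and 32 (39.5%) lower than in Control, beside 29.0% and 36.5% over all tested genes. Between the vectors, 12 (14.8%) were higher and 14 (17.3%) lower with NFAT2_CARIT than with NFAT2_CA, beside 11.9% and 16.7%. The shares called in the pathway as a whole were thus near those of all genes. Their median log2 fold change was -0.09, -0.15 and -0.07 in these comparisons, beside -0.09, -0.06 and -0.03 over all tested genes. The counts by role that follow come from lists of 2 to 11 tested genes and stand against the same background: 29.2% of all genes higher and 41.1% lower with NFAT2_CARIT, and 29.0% higher and 36.5% lower with NFAT2_CA, than in Control.

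On the receptor side, both other prostanoid receptor genes tested of the 6 listed were lower with either vector. Ptgir, the Gs-coupled prostacyclin receptor gene, measured 17.6, 19.7 and 15.7 CPM with NFAT2_CARIT, 17.1, 18.8 and 14.7 CPM with NFAT2_CA and 50.8, 56.2 and 47.8 CPM in Control, changes of -1.50 ± 0.10 and -1.56 ± 0.10 (limma adjusted p = 1.1e-09 and 7.5e-10). Tbxa2r, the thromboxane receptor gene, changed by -1.74 ± 0.09 with NFAT2_CARIT and -1.29 ± 0.09 with NFAT2_CA. Of the 7 other Gs-coupled receptor genes tested, 2 were called higher and 4 lower with each vector. Adora2a, the adenosine receptor gene, stood at 253, 254 and 236 CPM with NFAT2_CARIT, 217, 225 and 216 CPM with NFAT2_CA and 58.6, 49.8 and 52.7 CPM in Control (2.19 ± 0.06 and 2.01 ± 0.06 against Control, limma adjusted p = 3.7e-14 and 1.2e-13). Vipr1, the receptor gene for vasoactive intestinal peptide, went the other way, with 15.3, 14.7 and 14.5 CPM with NFAT2_CARIT, 14.8, 15.9 and 15.8 CPM with NFAT2_CA and 118, 118 and 120.4 CPM in Control (-2.92 ± 0.06 and -2.86 ± 0.06). Beside Ptger2, the Gs-coupled receptor genes were thus both raised and lowered.

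Of the 8 prostanoid enzyme and transport genes tested, 1 was called higher and 5 lower with NFAT2_CARIT, and 1 higher and 4 lower with NFAT2_CA, against Control. The largest change was that of Abcc4, a transporter that exports cAMP and prostaglandins, at 2.33, 3.02 and 2.46 CPM with NFAT2_CARIT, 7.14, 6.58 and 7.34 CPM with NFAT2_CA and 21.3, 21.0 and 16.5 CPM in Control. Beside Adcy7, the 3 other cyclase genes tested were all called lower with NFAT2_CARIT and 2 of them with NFAT2_CA, led by Adcy3 (-2.06 ± 0.12 and -1.80 ± 0.12). Of 11 G protein and regulator genes, 6 were higher and 2 lower with NFAT2_CARIT and 4 higher and 2 lower with NFAT2_CA, led by Rgs2 (2.56 ± 0.11 and 2.65 ± 0.11), whose product restrains G protein signalling.

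Beside the 4 phosphodiesterase genes described above, 7 others were tested, of which 2 were called higher and 3 lower with each vector against Control. Pde2a, whose product cyclic GMP activates, measured 62.2, 58.1 and 66.1 CPM with NFAT2_CARIT, 30.2, 27.7 and 35.3 CPM with NFAT2_CA and 162, 159 and 149 CPM in Control, and was higher with NFAT2_CARIT than with NFAT2_CA (0.98 ± 0.08, limma adjusted p = 2e-07). Pde10a measured 5.34, 5.16 and 4.61 CPM with NFAT2_CARIT and 1.78, 2.56 and 2.45 CPM with NFAT2_CA, and was listed at 0 in all 3 Control libraries. Beside Prkar1a, 6 protein kinase A genes were tested, with 2 higher and 3 lower with each vector. The 2 catalytic subunit genes ran in opposite directions: Prkacb changed by -1.07 ± 0.06 with NFAT2_CARIT and -0.88 ± 0.06 with NFAT2_CA, and Prkaca, named after its values were seen, by 0.38 ± 0.07 and 0.35 ± 0.07 (limma adjusted p = 0.00016 and 0.00045). The inhibitor gene Pkig was higher with both vectors (1.02 ± 0.12 and 1.10 ± 0.12). Of 10 anchoring protein genes, 1 was higher and 6 lower with NFAT2_CARIT and 5 lower with NFAT2_CA. The 4 genes of Epac and Rap1, the kinase-independent branch, had 1 higher and 2 lower with each vector. Csk, the kinase that protein kinase A activates at the T cell receptor, and its anchor gene Pag1 were both lower with both vectors, Csk by -0.53 ± 0.05 and -0.50 ± 0.05 and Pag1 by -1.21 ± 0.08 and -1.51 ± 0.08.

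Among the 10 CREB factor, coactivator and salt-inducible kinase genes, 3 were higher and 3 lower with each vector. Creb1, the gene of the family's founding activator, changed by -0.67 ± 0.07 with NFAT2_CARIT and -0.80 ± 0.07 with NFAT2_CA, opposite in sign to Crem. Sik1, a kinase gene that CREB induces, measured 156, 154 and 159 CPM with NFAT2_CARIT, 106, 114 and 122 CPM with NFAT2_CA and 72.8, 70.8 and 58.5 CPM in Control. Of the 11 immediate-early genes with CREB sites that were tested, 8 (72.7%) were called higher with NFAT2_CARIT and 7 (63.6%) with NFAT2_CA. This stood beside 29.2% and 29.0% of all tested genes. The Nr4a genes, Fosb, Per1, Gem and Cebpb were called higher with each vector. Fos was called higher with NFAT2_CARIT and not called with NFAT2_CA. The rest of the 11 were called with neither vector. Fosb was at only 0.255, 0.158 and 0.125 CPM in Control. Over the alternatives its log2 fold change ran from 0.49 to 2.02 with NFAT2_CARIT and from 0.96 to 3.03 with NFAT2_CA. Between the vectors, 3 of the 11 were called higher and 3 lower with NFAT2_CARIT, beside 11.9% and 16.7% of all tested genes. The 11 genes answer to several other pathways of T cell activation as well.

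**Figure D4:**
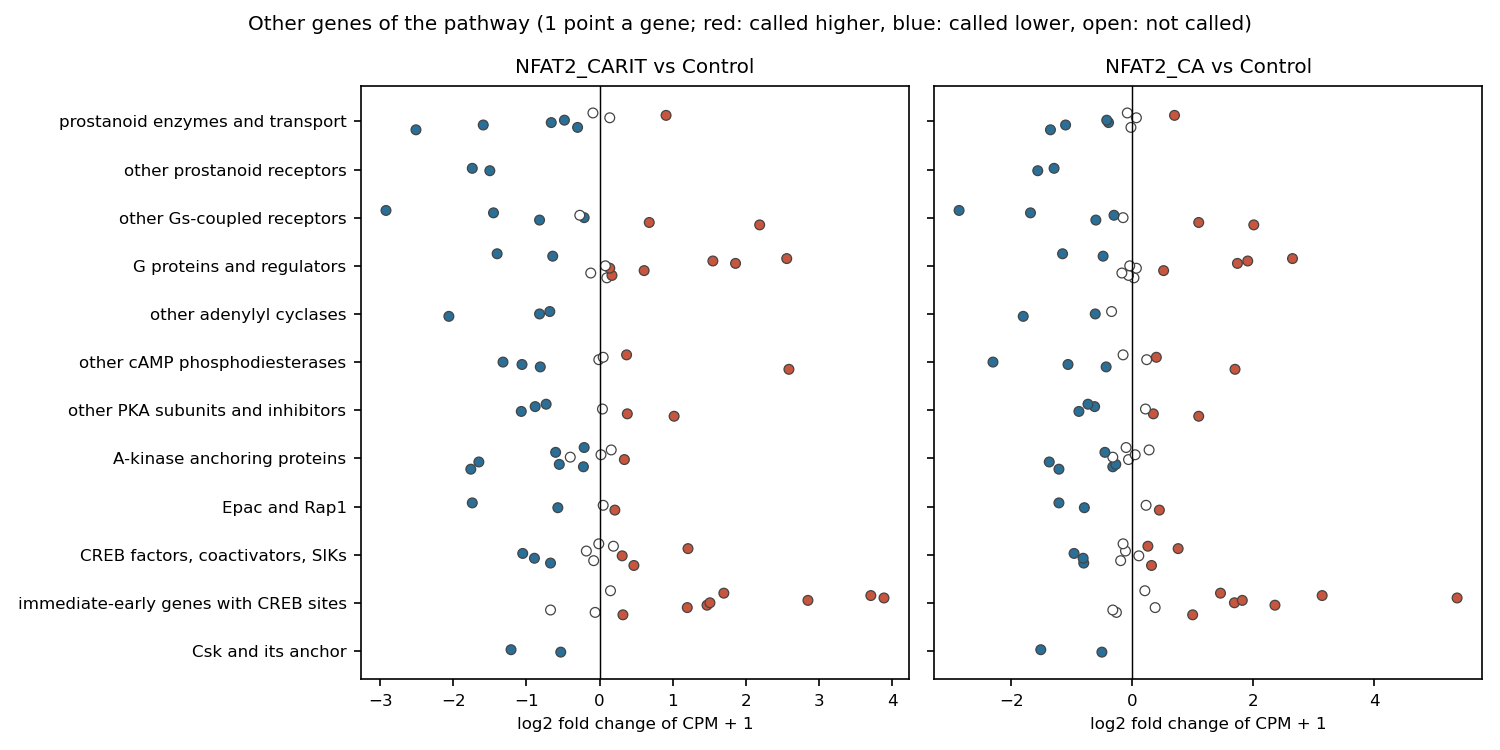
Log2 fold change of CPM + 1 (horizontal axes) of each tested gene of the 12 pathway lists, with NFAT2_CARIT against Control in the left panel and NFAT2_CA against Control in the right panel; red points were called higher, blue points lower and open points not called. Immediate-early genes lie mostly to the right (8 and 7 called higher) and both other prostanoid receptor genes to the left; the point of Pde10a, listed at 0 in Control, depends on the pseudocount.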

How the data were processed

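Expression values are CPM that the authors deposited for 9 libraries, each gene's reads scaled to 1 fixed library total, with 0.0001 added to every value (checked on the file). The authors' deposited comparison table gives p-values, step-up FDR values and log2 ratios per the file headers. It was made with DESeq2 and Partek 10 on mm10, per the submitters' processing notes. Aligner, quantifier, annotation and strand use: not given in the sources used here. Reads of overlapping or near-identical genes may therefore be split either way. Depth was estimated from the spacing of low values. It made 81.2% to 84.3% of the values that lay at or under 1 CPM whole reads (within 0.1 read), short of the 95% needed to rebuild counts.

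limma 3.58.1 in R 4.3.3 was fitted to log2(CPM + 1) in all 9 libraries with 1 mean for each group, trended and robust empirical Bayes and Benjamini-Hochberg adjustment. Genes with 1 CPM in at least 3 libraries were tested (13096), a filter under the 10 CPM of earlier work on these data, so that low members were kept. All 10 members passed it. The test was tried on simulated data. The members, the pathway lists and the tests were chosen with earlier results of these data known. Named pathway genes came from a rule of up to 4 called genes with the largest change per list, of which some are printed. 1 result on a gene outside the 10 is not reported here. Gene positions are from the authors' table with GENCODE M21 on GRCm38, and levels per kilobase use its merged exons. Alternatives were pseudocounts of 0.5 and 5, filters of 10 CPM and none, TMM factors (trimmed mean of M values, computed on the CPM), quantile normalization, a fit on the 6 libraries of a comparison, a replicate block and leaving out each library. No replicate was a copy of another (median chi-square of a gene between replicates 1.25 to 2.82). Python 3.11.15, NumPy 2.4.6, pandas 2.3.3 and matplotlib 3.10.9 were used.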

Additional observations from a re-analysis of the deposited data

How the results depend on the processing

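Across 17 alternatives, the 30 log2 fold changes of the 10 genes gave 507 values, none of which reversed a called direction: 447 kept the direction and side of the threshold, 56 lost the call and 4 gained it. In NFAT2_CA against Control all 9 called genes were called under every alternative, in NFAT2_CARIT against Control 7 of 10, and between the vectors 4 of 8. The number called between the vectors was 8, but 4 after quantile normalization and 4 to 8 when 1 library was left out. A filter of 10 CPM dropped Ptger1. TMM factors and quantile normalization moved the median of all genes by at most 0.05 on the log2 scale. Same-numbered libraries correlated at -0.06938 to 0.2594 in their deviations from the group means, with the highest value for replicate 3 of the NFAT2_CARIT and NFAT2_CA groups. The labels tie no numbers together, so the main fit did not pair the libraries. Whether same-numbered libraries share an origin cannot be told from these values. With the replicate number as a block, 8 of the 10 genes were called with NFAT2_CARIT against Control, 10 with NFAT2_CA against Control and 6 between the vectors, and over all genes 9178, 8562 and 3544. Ptger1, the gene with the fewest reads of the 10, stood at 2.86 to 9.34 CPM, and its lowest value was in the library with the most estimated reads (38189000); the part of depth in its spread was not tested.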
